A study of Mus musculus with 6 samples.

Results

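The genes described are 10 secreted components of bone morphogenetic protein (BMP) signaling, namely the ligands *Bmp2*, *Bmp4*, *Bmp5*, *Bmp6* and *Bmp7* and the extracellular antagonists and modulators *Nog*, *Chrd*, *Grem1*, *Bmper* and *Twsg1*. A probe set was taken as belonging to one of them when the array annotation gave it that symbol and no other. By this rule 7 of the 10 genes had 26 probe sets, out of 77669 probe sets with 1 symbol and 16523 genes in all. *Bmp2* had 4 probe sets, *Bmp4* had 2, *Bmp7* had 3, *Nog* had 1, *Chrd* had 9, *Bmper* had 6 and *Twsg1* had 1, whereas *Bmp5*, *Bmp6* and *Grem1* had no such probe set and were not analysed here.

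The cells were ETV2::GFP+FLK1+CD41- cells from embryos of ICR females mated with ETV2::GFP males, sorted at E8.5 (3 arrays) and at E7.5 (3 arrays), and each array received amplified RNA from 50 cells. The GFP transgene reports transcription of *Etv2*, an ETS factor required for endothelium and blood, FLK1 is the VEGF receptor encoded by *Kdr*, and exclusion of CD41, encoded by *Itga2b*, leaves out cells that have entered the blood lineage. The paper places the E8.5 cells in the embryo proper and describes E7.5 cells as extra-embryonic, while the labels give the stage only, so that stage and site cannot be told apart. Values are log2 signals of an Affymetrix exon array after RMA, and the value of a gene on an array is the median of its probe sets there. The triplicates are described as biological, without a statement on litters, and a p-value here covers only the variation among these samples.

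BMPs are secreted dimers of the TGF-beta family that bind serine/threonine kinase receptors and lead to phosphorylation of SMAD1 and SMAD5, which enter the nucleus with SMAD4 and activate genes such as those of the ID family. Outside the cell their reach is set by binding proteins: Noggin and Chordin hold the ligands away from the receptors, while Twisted gastrulation and BMPER can act with Chordin or release the ligand, depending on the context. In the mouse gastrula BMP4 from extra-embryonic ectoderm and then extra-embryonic mesoderm is required for mesoderm, the allantois and the blood islands of the yolk sac.

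*Bmp4* is the member on which the results turn, and the sequence upstream of its RefSeq start is therefore shown. It covers the 250 bases before the start (GRCm38.p6, chr14:46390670-46390919, minus strand, written 5′ to 3′), with 63.2% G or C against a median of 52.4% over the 32851 upstream regions of the RefSeq table. Capitals mark its 1 match among 6 motifs searched on both strands, the ETS motif CCGGAA, which lies on the opposite strand between 95 and 90 bases before the start.
Bmp4: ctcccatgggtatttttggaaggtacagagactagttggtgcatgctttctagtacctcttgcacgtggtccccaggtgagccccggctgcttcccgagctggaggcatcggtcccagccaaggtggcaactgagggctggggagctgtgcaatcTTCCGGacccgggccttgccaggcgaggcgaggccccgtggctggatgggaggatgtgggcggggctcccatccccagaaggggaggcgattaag
The ETS motif CCGGAA occurred in 12% of all such upstream regions, and shorter forms of it were not searched for. The other motifs searched were the GC-rich SMAD1/5 element GGCGCC (in 9.59% of regions), the SMAD box GTCTG (42.2%), the GATA motif AGATAA (9.99%), the RUNX motif TGTGGT (14%) and the GLI motif TGGGTGGTC (0.225%), and none of them was spelled out in this window. Of the 7 measured genes, 4 had a region in the table. The regions of *Chrd*, *Bmper* and *Twsg1* held no CCGGAA, while *Chrd* had 1 GGCGCC and *Twsg1* had 2 GTCTG. A match of letters is a description of the sequence only.

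In E8.5 cells the 3 measured ligands had lower means than in E7.5 cells and the values of the 4 measured antagonists and modulators overlapped between the stages. *Bmp4* passed the test, while *Bmp7* and *Bmp2* did not, although for both of them every E8.5 array lay below every E7.5 array. For *Bmp7* and *Bmp2* this holds for the gene medians, and their probe sets disagreed, as set out below. The log2 fold changes, as E8.5 minus E7.5, were between -5.39 and -0.80 for the ligands and between -0.20 and 0.087 for the antagonists and modulators. With 1 of 7 members called lower at E8.5 by limma, the background was 0.0726% of the 16523 genes in that direction and 0.109% in either direction. Complete separation with lower values at E8.5 was seen for 3 of the 7 members, against 7.12% of all genes, and a mean more than 2-fold lower at E8.5 for 2 of them, *Bmp4* and *Bmp7*, against 4.79% of all genes. The median log2 fold change over the 7 members was -0.20, and over all genes 0.0035. Since the genes were chosen with results of these arrays known, these counts describe the members and are not a test of the group.

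**Figure D1:**
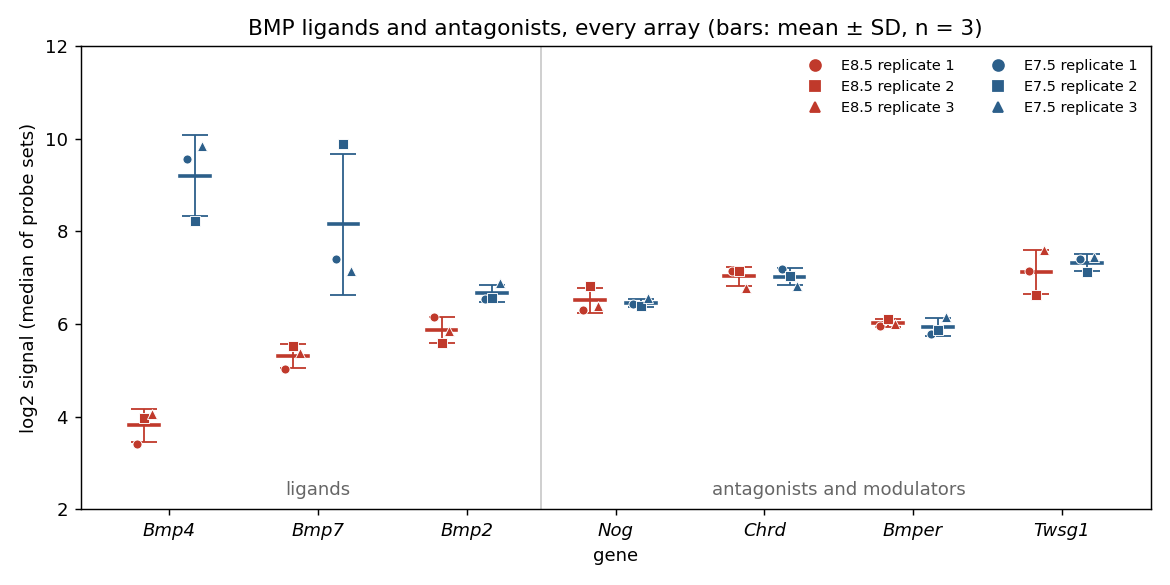
Log2 signal of the 7 measured genes (vertical axis, median of the probe sets) on the E8.5 arrays (red, left of each pair) and the E7.5 arrays (blue, right of each pair), with mean and SD over 3 arrays. The 3 ligands separate by stage, with *Bmp4* at 3.40 to 4.05 at E8.5 and 8.21 to 9.83 at E7.5, whereas the 4 antagonists and modulators overlap.

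*Bmp4*, the ligand that induces ventral and extra-embryonic mesoderm, had log2 signals of 3.40, 3.97 and 4.05 on E8.5 replicates 1, 2 and 3, against 9.56, 8.21 and 9.83 on E7.5 replicates 1, 2 and 3. All E8.5 arrays were low and lay within 0.64 log2 units at the gene level, though within 1.57 on probe set 4429072. The lowest E7.5 array, replicate 2, was still 4.17 log2 units above the highest E8.5 array. The mean was 3.81 ± 0.35 at E8.5 and 9.20 ± 0.87 at E7.5 (SD, n = 3 each), a log2 fold change of -5.39 (standard error 0.46, 95% confidence interval -6.51 to -4.28, adjusted p = 0.035 from limma). An exact two-sided permutation test of 3 arrays against 3 cannot go below p = 0.1, which was the value for *Bmp4*, *Bmp7* and *Bmp2*.

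The 2 probe sets of *Bmp4* moved in the same direction. Probe set 4429072 lay at 2.60, 3.83 and 4.17 in the E8.5 replicates, against 9.99, 9.12 and 10.44 in the E7.5 replicates. This was a log2 fold change of -6.31 ± 0.54 (SE, limma adjusted p = 0.044 over all probe sets), and it was the only 1 of the 26 probe sets that passed, against 0.0771% of the 90788 probe sets of the array table. Probe set 4520600 lay at 4.21, 4.11 and 3.93 in the E8.5 replicates, against 9.13, 7.31 and 9.23 in the E7.5 replicates (-4.47 ± 0.55 log2 units, SE, limma adjusted p = 0.11). On both, E7.5 replicate 2 was the lowest of its stage. No detection calls accompany the values, so it is unknown whether *Bmp4* was above background at E8.5, and its log2 fold change is only the difference of the measured signals. The call depended on the arrays and on the processing. The adjusted p from limma was 0.11, 0.12 and 0.080 when E8.5 replicate 1, 2 or 3 was left out, and 0.13 and 0.12 when E7.5 replicate 1 or 3 was. It stayed under the threshold, at 0.042, when E7.5 replicate 2 was left out. With all 6 arrays kept, it was 0.077 in limma after a filter to genes above the 25th percentile of mean signal, and 0.32 when limma was replaced by a test that takes the spread of each gene alone.

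*Bmp7* encodes a ligand of another BMP subgroup that can pair with BMP2 or BMP4 into heterodimers. Its log2 signal was 5.03, 5.53 and 5.36 on E8.5 replicates 1, 2 and 3, against 7.41, 9.89 and 7.14 on E7.5 replicates 1, 2 and 3. The stages did not overlap, and E7.5 replicate 2, the lowest E7.5 array for *Bmp4*, was the highest for *Bmp7*. The mean was 5.31 ± 0.25 at E8.5 and 8.15 ± 1.52 at E7.5 (SD, n = 3 each). The log2 fold change of -2.84 (standard error 0.73, interval -4.62 to -1.06) did not pass over all genes (adjusted p = 0.39 from limma), and it stood at place 36 from the most negative of the 16523 differences. Without E7.5 replicate 2 the difference was smaller, at -1.96, and its standard error fell to 0.24, with an adjusted p of 0.17 from limma. The probe set that gave the median was not the same in both stages, as set out below. These gene-level values of *Bmp7* therefore also hold differences between probe sets.

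The array that raised the E7.5 mean of *Bmp7* was also the highest E7.5 array for *Kdr*, at 9.92 against 8.56 and 8.84 on the other E7.5 arrays, and for *Tek*, the endothelial angiopoietin receptor, at 9.43 against 6.80 and 6.09. It was also the highest E7.5 array for *Cdh5*, at 8.19 against 6.81 and 6.37, and for *Pecam1*, at 7.94 against 7.81 and 6.85. The same held for *Tie1* (8.15 against 8.08 and 6.94) and *Etv2* (12.09 against 11.66 and 11.72). For *Kit* and *Itga2b* it lay between the other E7.5 arrays. For *Emcn*, the endothelial sialomucin endomucin, it was the lowest, at 4.80 against 5.62 and 5.10. Between the stages *Emcn*, *Tie1* and *Cdh5* had higher means at E8.5, opposite to *Bmp7*, with log2 fold changes of 2.58, 1.27 and 1.26, and none of them passed (adjusted p = 0.42, 0.59 and 0.75 from limma). *Kdr*, *Etv2*, *Itga2b* and *Pecam1* had lower means at E8.5, as *Bmp7* did, with log2 fold changes of -0.73, -0.49, -0.52 and -0.25. *Kit* and *Tek* were at 0.42 and 0.12, and none of these genes passed. The part of endothelial content in the *Bmp7* signal was not tested.

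The 3 probe sets of *Bmp7* disagreed. Probe set 5439626 lay at 5.03, 5.53 and 5.36 in the E8.5 replicates, against 7.75, 10.63 and 7.15 in the E7.5 replicates, and probe set 4921164 at 4.06, 5.10 and 3.54 at E8.5, against 7.07, 9.89 and 5.55 at E7.5. Both separated the stages, with log2 fold changes of -3.20 (standard error 0.92) and -3.27 (standard error 1.13), and neither passed (adjusted p = 0.56 and 0.65 from limma). Probe set 5203139 was flat, at 7.34, 7.30 and 7.09 in the E8.5 replicates, against 7.41, 7.18 and 7.14 in the E7.5 replicates, a log2 fold change of -0.00030 (standard error 0.19). It had the highest mean of the 3 probe sets over all 6 arrays, so that with the brightest probe set as the value per gene the *Bmp7* difference disappeared. The median of the 3 was the value of probe set 5439626 on every E8.5 array. At E7.5 it was that of the flat probe set 5203139 on replicates 1 and 3 and of 4921164 on replicate 2. The gene-level difference of *Bmp7*, its rank and its value without E7.5 replicate 2 thus compare different probe sets between the stages. Where the probe sets lie in the gene was not established here.

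*Bmp2*, the closest relative of *Bmp4* among the ligands, had a smaller difference. Its log2 signal was 6.15, 5.59 and 5.84 on E8.5 replicates 1, 2 and 3, against 6.54, 6.55 and 6.88 on E7.5 replicates 1, 2 and 3, with the stages 0.39 log2 units apart. The log2 fold change was -0.80 ± 0.22 (SE, interval -1.33 to -0.27, limma adjusted p = 0.43).

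Of its 4 probe sets 1 separated the stages. Probe set 5284380 lay at 6.91, 5.97 and 5.92 in the E8.5 replicates, against 8.03, 7.39 and 8.46 in the E7.5 replicates (-1.69 ± 0.41 log2 units, SE, limma adjusted p = 0.46). Probe sets 4396759, 4780574 and 4925642 overlapped between the stages, with log2 fold changes of -0.067, 0.18 and -0.10. The brightest of the 4, probe set 4925642, stayed between 9.34 and 9.69 on the E8.5 arrays and between 9.54 and 9.68 on the E7.5 arrays. The median of the 4 lay midway between probe set 5284380 and a dimmer probe set on every array. The dimmer one was 4780574 on the E8.5 arrays and E7.5 replicate 2, and 4396759 on E7.5 replicates 1 and 3. The gene-level difference of *Bmp2* thus rests mainly on probe set 5284380 and also compares different probe sets between the stages.

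**Figure D2:**
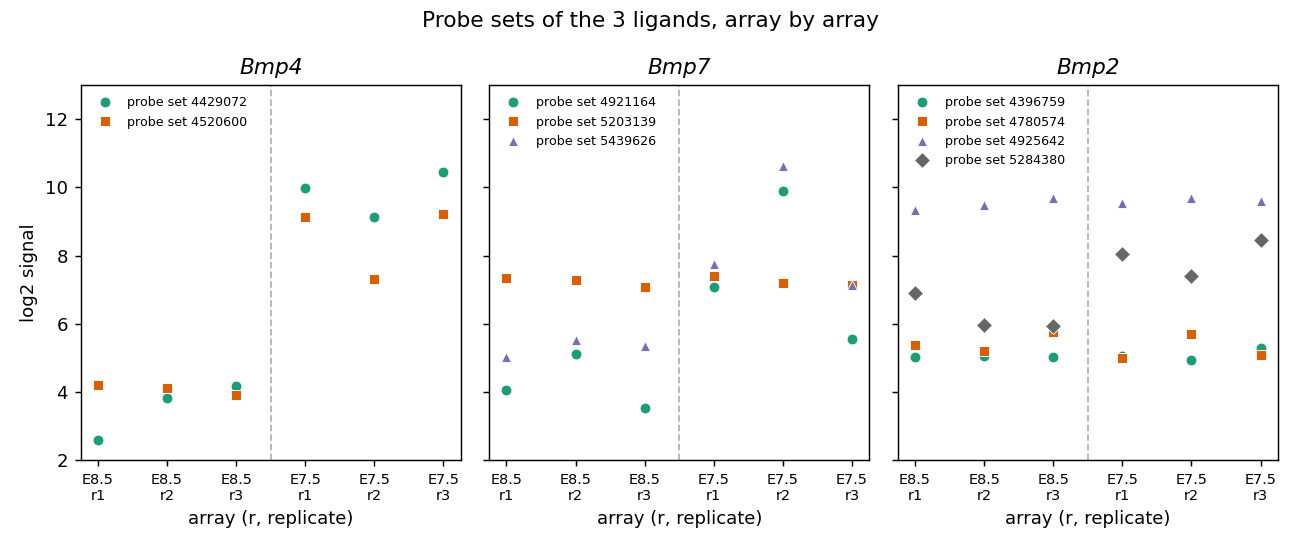
Log2 signal (vertical axis) of each probe set of *Bmp4*, *Bmp7* and *Bmp2* on the E8.5 arrays (left of the dashed line) and the E7.5 arrays (right of it), 1 symbol per probe set. Both *Bmp4* probe sets, 2 of 3 for *Bmp7* and 1 of 4 for *Bmp2* are lower on every E8.5 array, and E7.5 replicate 2 is the highest array for the 2 *Bmp7* probe sets that separate the stages.

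Among the antagonists, *Nog* encodes Noggin, which binds BMP ligands directly. Its log2 signal was 6.30, 6.82 and 6.39 in the E8.5 replicates, against 6.44, 6.38 and 6.55 in the E7.5 replicates. The E7.5 arrays all fell within the range of the E8.5 arrays, and the log2 fold change was 0.049 ± 0.20 (SE, interval -0.44 to 0.54, limma adjusted p = 0.97).

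*Chrd* encodes Chordin, an antagonist that the BMP1 and Tolloid proteases cleave to free the ligand. It had 7.15, 7.15 and 6.78 in the E8.5 replicates, against 7.18, 7.04 and 6.82 in the E7.5 replicates, and in both stages replicate 3 was the lowest array. The log2 fold change was 0.0096 ± 0.20 (SE, interval -0.47 to 0.49, limma adjusted p = 0.99). Of its 9 probe sets 5 had a lower and 4 a higher mean at E8.5, and 7 overlapped between the stages. The widest difference was that of probe set 5015180, which lay at 6.56, 6.80 and 6.67 in the E8.5 replicates, against 5.98, 6.19 and 5.73 in the E7.5 replicates. Its arrays did not overlap, but its log2 fold change of 0.71 (standard error 0.21) did not pass (adjusted p = 0.57 from limma). Probe set 4552665 was the other without overlap, lower at E8.5, with a log2 fold change of -0.33 and a gap of 0.049 between the stages.

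*Bmper*, which encodes a Chordin-like protein made by endothelial cells and their precursors, had 5.95, 6.11 and 6.01 in the E8.5 replicates, against 5.78, 5.88 and 6.15 in the E7.5 replicates. The stages overlapped, and the log2 fold change was 0.087 ± 0.18 (SE, interval -0.35 to 0.52, limma adjusted p = 0.94). Its 6 probe sets were divided, 4 with lower and 2 with higher means at E8.5, and their log2 fold changes ran from -0.59 for probe set 5331993 to 0.50 for probe set 5551862. None of the 6 reached an unadjusted p of 0.05, and their adjusted p-values from limma lay between 0.76 and 0.81. Probe set 5331993 was lower and probe set 4697580 higher at E8.5 without overlap of the arrays.

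*Twsg1* encodes Twisted gastrulation, a partner of Chordin that can both restrain and promote BMP signaling. It had 7.14, 6.63 and 7.59 in the E8.5 replicates, against 7.41, 7.11 and 7.44 in the E7.5 replicates. The E7.5 arrays lay inside the wider E8.5 range, and the log2 fold change was -0.20 ± 0.28 (SE, interval -0.89 to 0.48, limma adjusted p = 0.89).

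**Figure D3:**
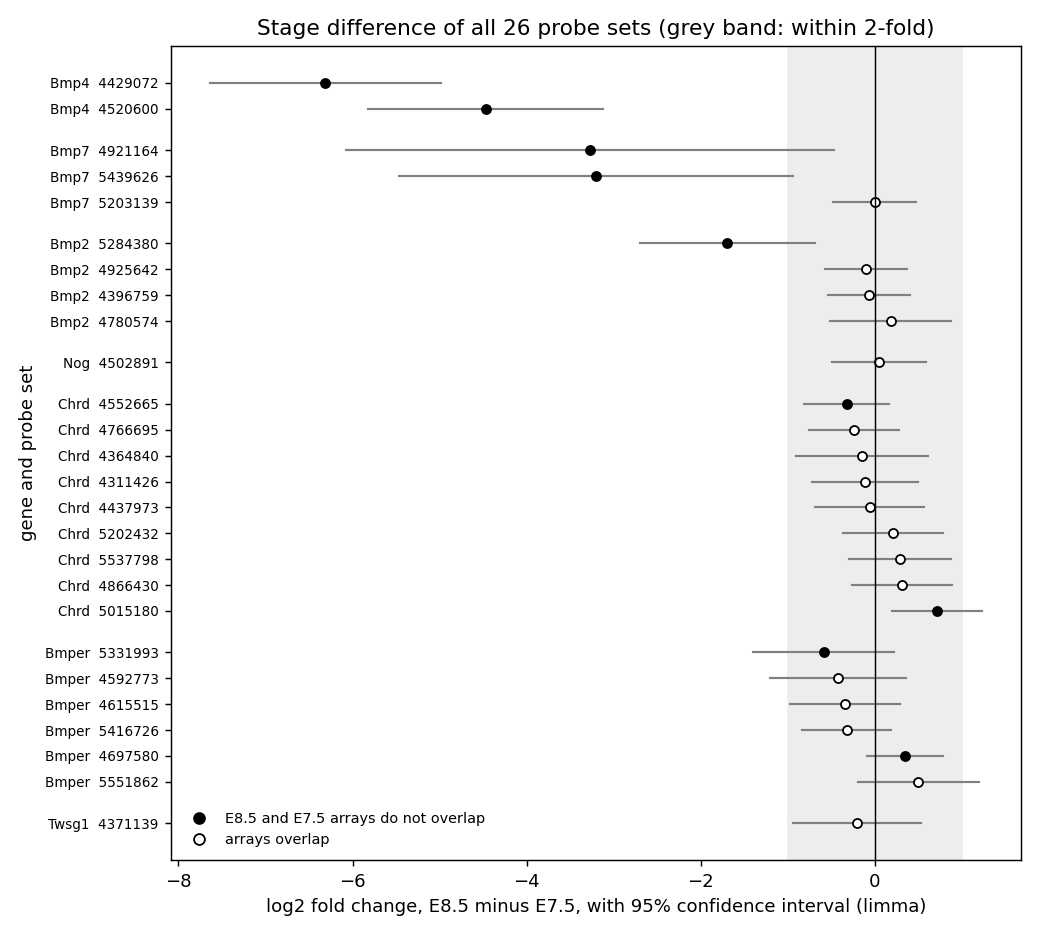
Log2 fold change, E8.5 minus E7.5 (horizontal axis), with its 95% confidence interval from limma for each of the 26 probe sets (vertical axis), where filled points mark probe sets whose arrays do not overlap between the stages. Of 9 ligand probe sets 5 are filled and lower at E8.5, and of 17 antagonist and modulator probe sets 2 are filled and lower and 2 filled and higher.

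Counted by probe set, 5 of the 9 ligand probe sets and 2 of the 17 antagonist and modulator probe sets were lower on every E8.5 array, against 7.08% of the 90788 probe sets of the table. None of the ligand probe sets and 2 of the others were higher on every E8.5 array, against 6.99% of all probe sets. The antagonist shares are near the background. None of the 4 antagonist and modulator genes passed, and none reached an unadjusted p of 0.05 from limma, while 1 of their 17 probe sets did, against 7.04% of all probe sets. Their 4 gene-level intervals together spanned -0.89 to 0.54, so each measured difference of the gene medians was held within 2-fold in both directions. This does not hold for every probe set of *Chrd* and *Bmper*. The interval was 0.20 to 1.23 for *Chrd* probe set 5015180 and -1.40 to 0.22 for *Bmper* probe set 5331993. Because RMA shrinks differences near background, a change in a dim transcript can be larger than its measured value. *Nog* and *Twsg1* rested on 1 probe set each. Probe sets of a gene share the RNA of their array and are not replicates of the stages.

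The pathway around these genes was examined with 5 further lists. Of 55 listed genes that were not members 47 were measured, and none passed the test over all genes. Before adjustment 6 of the 47 had a p under 0.05, 1 with a lower and 5 with higher means at E8.5, against 4.68% and 3.11% of all genes, and the smallest adjusted p was 0.35 from limma. The median log2 fold change over the 47 genes was 0.055.

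None of 7 other BMP and GDF ligands differed by more than 2-fold. *Gdf5*, a ligand of joint and cartilage formation, had 4.60, 5.16 and 5.14 in the E8.5 replicates, against 4.60, 4.31 and 4.28 in the E7.5 replicates, a log2 fold change of 0.57 (adjusted p = 0.61 from limma). The log2 fold change was -0.35 for *Bmp15*, an oocyte ligand, and 0.22 for *Bmp8a*, and neither passed.

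Of 14 other extracellular modulators, *Tsku*, a secreted leucine-rich protein that binds BMPs, had the largest difference. It lay at 4.66, 4.63 and 4.78 in the E8.5 replicates, against 5.99, 5.65 and 8.10 in the E7.5 replicates. The arrays did not overlap and E7.5 replicate 3 was the highest, with a log2 fold change of -1.89 ± 0.63 (SE, limma adjusted p = 0.55). For *Nbl1*, a BMP antagonist of the DAN family, the log2 fold change was -0.47, and for *Sostdc1*, another BMP antagonist, it was -0.32, both with overlap.

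Between the ligands and the nucleus, 10 receptors and co-receptors and 8 SMAD pathway genes were measured, with median log2 fold changes of 0.14 and 0.094. *Acvr2b*, a type II receptor that binds BMPs and activins, had 9.65, 7.62 and 8.22 in the E8.5 replicates, against 9.94, 9.96 and 9.20 in the E7.5 replicates, with overlap and a log2 fold change of -1.20 (adjusted p = 0.68 from limma). *Bmpr1b*, a type I BMP receptor, had a log2 fold change of 0.50 (adjusted p = 0.60 from limma). *Smad5*, which carries the BMP signal to the nucleus, had 6.91, 5.95 and 6.55 in the E8.5 replicates, against 5.05, 5.54 and 5.34 in the E7.5 replicates. All E8.5 arrays were above all E7.5 arrays for *Smad5*, and its log2 fold change was 1.16 ± 0.29 (SE, limma adjusted p = 0.39). For *Smad9*, the related transducer, the log2 fold change was -0.35 without overlap (adjusted p = 0.68 from limma).

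The 11 measured BMP target genes had log2 fold changes from -0.11 to 2.22, with a median of 0.17, and 2 of the 11 had a lower and 9 a higher mean at E8.5. *Tbx3*, a T-box factor, had 7.12, 5.95 and 7.13 in the E8.5 replicates, against 5.37, 5.04 and 5.13 in the E7.5 replicates (1.55 ± 0.36 log2 units, SE, limma adjusted p = 0.35). *Hey1*, which is also a Notch target of arterial endothelium, had 6.36, 8.43 and 9.26 in the E8.5 replicates, against 6.12, 5.63 and 5.65 in the E7.5 replicates (2.22 ± 0.72 log2 units, SE, limma adjusted p = 0.53). Neither gene overlapped between the stages, in the direction opposite to the ligands. They were the only 2 of the 11 higher at E8.5 without overlap, against 7.1% of all genes. *Id2*, a gene of the ID family, had a log2 fold change of 0.79 with overlap (adjusted p = 0.73 from limma). No target gene of the list was lower at E8.5 without overlap, against 7.12% of all genes, and a list of 11 is too short to read this as a result.

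**Figure D4:**
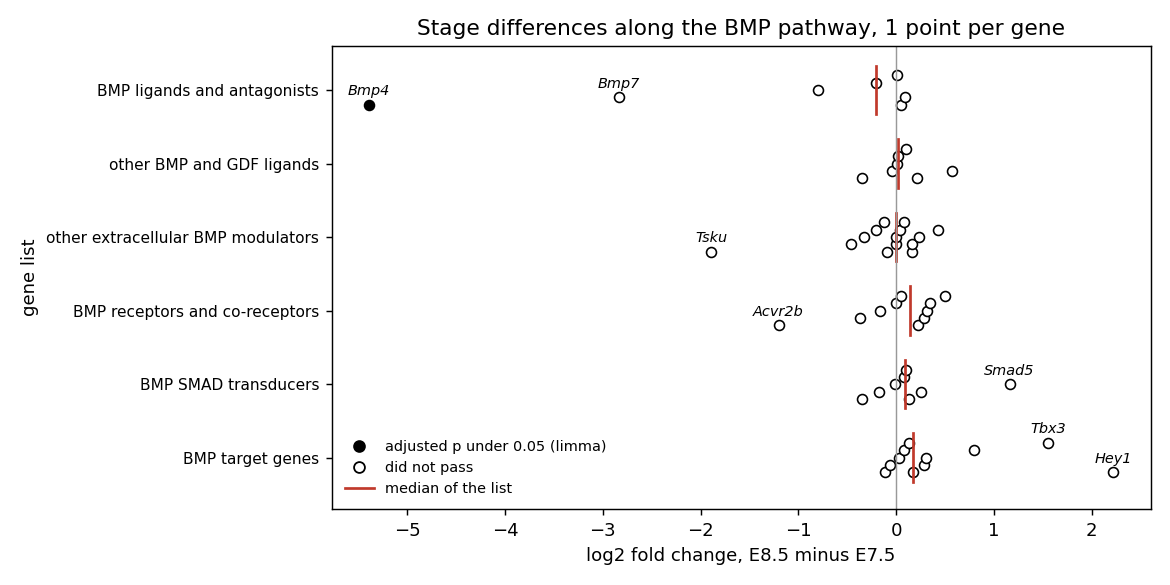
Log2 fold change, E8.5 minus E7.5 (horizontal axis), of each measured gene of the 7 BMP ligands and antagonists and of 5 further pathway lists (vertical axis), with the list medians in red and names for genes that differed by more than 2-fold. *Bmp4*, at -5.39, is the only filled point, which marks an adjusted p under 0.05 from limma.

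The genes whose profile over the 6 arrays, after subtraction of each gene's own mean, lay nearest to that of *Bmp4* were *Gcnt1*, *Hbb-bh1*, *Rab5a*, *Atp6v1b2* and *Hist1h1c*. Their root-mean-square distances from it were 0.52, 0.60, 0.91, 0.92 and 0.99 log2 units. *Gcnt1*, which encodes an enzyme that branches O-glycans, had 2.34, 2.77 and 2.98 in the E8.5 replicates, against 8.74, 7.51 and 7.54 in the E7.5 replicates, and shared with *Bmp4* the lowest E7.5 value on replicate 2. *Hbb-bh1*, an embryonic globin of primitive red cells, had 3.02, 3.56 and 2.73 in the E8.5 replicates, against 7.45, 7.53 and 8.96 in the E7.5 replicates. Of the 5 genes, *Gcnt1*, *Hbb-bh1* and *Rab5a* passed the test, with adjusted p-values of 0.033, 0.046 and 0.022 from limma, and *Atp6v1b2* and *Hist1h1c* did not, at 0.13 and 0.17. Of all genes 0.109% passed in either direction. Because the 5 were picked for likeness to *Bmp4*, whose profile is mostly its stage difference, large stage differences were built into the choice. Their passing is therefore no separate evidence.

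Marker lists were read beside *Bmp4*. *Etv2* was high in all samples, at 10.93 to 11.60 in E8.5 cells and 11.66 to 12.09 in E7.5 cells, and none of the 9 genes of the sorted population passed. Of these 9, *Emcn* and *Tie1* were higher and *Etv2* and *Itga2b* lower on every E8.5 array, and 3 had a mean more than 2-fold higher at E8.5. Of all genes, 7.1% were higher and 7.12% lower on every E8.5 array. The mean log2 signal over 7 primitive erythroid genes was 6.02 to 6.17 on the E8.5 arrays and 6.98 to 7.39 on the E7.5 arrays, and *Hbb-bh1* was the 1 of the 7 that passed. The 7 genes did not differ alike: 4 had a lower and 3 a higher mean at E8.5. Of the 7, 2 were lower without overlap, against 7.12% of all genes. A mean more than 2-fold lower at E8.5 was seen for 3 of them, against 4.79% of all genes, and none was more than 2-fold higher. The median log2 fold change over the 7 was -0.11, against -4.87 for *Hbb-bh1*. Over 7 genes of the allantois and extra-embryonic mesoderm, *Bmp4* left out, the mean log2 signal was 6.58 to 7.14 at E8.5 and 6.15 to 6.59 at E7.5, and none passed. Of these genes 3 had a lower and 4 a higher mean at E8.5. Their log2 fold changes ran from -0.20 to 2.38, with a median of 0.19. For 13 visceral endoderm genes the ranges were 7.26 to 7.46 at E8.5 and 7.28 to 7.82 at E7.5, for 4 trophoblast genes 8.05 to 8.37 at E8.5 and 7.99 to 8.11 at E7.5, and for 10 cardiac genes 6.76 to 8.41 at E8.5 and 7.13 to 7.65 at E7.5, with no gene called in any of them. For 8 genes of the streak and epiblast the ranges were 7.62 to 7.92 at E8.5 and 7.89 to 8.03 at E7.5, and for 8 neural and paraxial genes 7.09 to 7.25 at E8.5 and 6.89 to 7.15 at E7.5. The part of these cell types in the *Bmp4* difference was not tested, and in such bulk samples fewer cells that express a gene cannot be told apart from less RNA per cell. The paper also reports lower *Bmp4* at E8.5 in single cells of this sort, and those measurements were not analysed here.

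Across genes, arrays correlated at 0.876 to 0.886 within E8.5, 0.884 to 0.896 within E7.5 and 0.855 to 0.881 between the stages, which describes the arrays only, since genes are not independent replicates. The median log2 signal of an array was between 6.98 and 7.07.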

How the data were processed

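The 6 arrays held 3 samples of E8.5 and 3 of E7.5 cells. The authors deposited log2 signals per exon probe set after RMA, and the submitters' processing notes name Affymetrix Power Tools. For its version, the sources used here give nothing. RMA makes the arrays alike in distribution, so a difference in RNA content between cells is lost, and amplifying 50 cells adds noise of its own.

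Of 90788 probe sets, 77669 had 1 symbol, 654 several (left out) and 12465 none. Of 16523 symbols 13887 were current in RefSeq GRCm38.p6, 2632 were synonyms and 4 were neither. A gene took the median of its probe sets. As in the array methods of the study, which used limma, E8.5 was compared with E7.5 by lmFit and eBayes of limma 3.58.1 (R 4.3.3), without a filter, with Benjamini-Hochberg adjustment over all genes or all probe sets and a threshold of 0.05. The code was tested on simulated data. Named were all members, up to 4 genes per pathway list by smallest p, and the 5 profiles nearest to each member that passed. Members and lists were chosen with earlier results of these data known. Alternatives changed the scaling, the filter, the gene summary, the variance model and the test (Student's test, which the paper names for its data in general), added the replicate block or left out 1 array. Upstream sequences came from RefSeq. The number of arrays limits the precision.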

Additional observations from a re-analysis of the deposited data

How the results depend on the processing

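*Bmp4* kept its negative difference in each of the 14 alternatives that tested it, between -6.31 and -5.08. Its call was lost in 8 of them: with genes above the 25th percentile of mean signal (-5.39, adjusted p = 0.077 from limma), with the replicate number as a block (-5.39, adjusted p = 0.27), with Student's test per gene (-5.39, adjusted p = 0.32) and without any 1 array except E7.5 replicate 2 (between -5.89 and -5.08 over the 6 arrays left out). The filters on genes above the median signal and with at least 3 probe sets removed *Bmp4* before the test. The members passing therefore numbered 0 in these 5 settings and 0 or 1 when an array was left out. Over all genes, 18 passed (1288 at an unadjusted p under 0.05), against 16 with each array's median subtracted, 13 after a further quantile normalization, 11 with the mean over probe sets, 9 with the brightest probe set, 1 above the 25th percentile, 0 above the median signal (674 unadjusted), 0 with the block (1221 unadjusted), 0 with Student's test (1216 unadjusted, 3 of them members) and 0 to 12 without 1 array (1089 to 1262 unadjusted). Of all probe sets 70 passed, against 5 above the median signal, 0 with the block (5771 unadjusted) and 0 to 10 without 1 array. Of the 26 member probe sets 1 passed, against 0 above the median signal, 0 with the block and 0 or 1 without 1 array. The labels do not say whether the replicate numbers pair the samples, and the values showed no sign of it. The deviations of same-numbered arrays correlated at 0.0074, -0.0083 and -0.00082, and no E8.5 array was most like its own number. With so few arrays this cannot exclude a pairing. The block takes away residual degrees of freedom.

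With the brightest probe set 1 member, *Bmp4*, was lower at E8.5 without overlap, in place of 3. The sign of *Bmper* turned to -0.14 with the mean over probe sets and -0.32 with the brightest. Without 1 array *Chrd* ranged from -0.088 to 0.13, *Nog* from -0.11 to 0.15 and *Twsg1* from -0.44 to 0.044. *Bmp2* lay between -0.94 and -0.10 and *Bmp7* between -3.34 and -0.00030 over the 15 alternatives that tested them. With the brightest probe set *Bmp7* showed no difference (-0.00030, adjusted p = 1.00 from limma) and *Bmp2* was at -0.10. Neither gene passed in any alternative. The cause of these shifts was not tested. Signal over background is unknown for dim probe sets such as those of *Bmp4* at E8.5.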
